A study of Homo sapiens with 36 samples.

Results

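KIT encodes the receptor tyrosine kinase for stem cell factor (SCF), and the occupancy of its locus by GATA2 was described here in an erythroid progenitor line. All peaks whose summit lay in the KIT gene body or within 200 kb on either side were taken from 28 peak lists and merged where they overlapped. This gave 7 sites, built from 85 of the 120509 peaks on chromosomes 1 to 22 and X, out of 17277 sites in the whole genome. On hg38 the gene spans chr4:54657957-54740715 on the plus strand, and the window searched spans chr4:54457957-54940715.

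Binding of stem cell factor makes KIT molecules pair and phosphorylate each other, which starts signalling through PI3-kinase, RAS and MAP kinases, SRC-family kinases and STAT proteins. Mast cells, blood stem and progenitor cells and early erythroid cells depend on this receptor. In mouse erythroid precursors GATA2 occupies the Kit locus, far upstream elements included, and is replaced there by GATA1 as the cells mature and Kit is silenced.

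The data are CUT&Tag libraries, in which an antibody directs a transposase to the chromatin it binds, made from the human line HUDEP-2, which are erythroid progenitors kept growing in culture. A site is called occupied in a library that has a peak there. With an antibody against GATA2, 4 libraries each were made from GATA2-low cells with lentiviral HA-GATA2(T354M), called HA-T354M here, GATA2-low cells with lentiviral HA-GATA2, GATA2-low cells with an empty vector and wild-type cells with an empty vector. With an antibody against the HA tag, 4 libraries each were made from the first 3 of these kinds of cells. T354M changes a residue of a GATA2 zinc finger.

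GATA2-low cells carry the genotype GATA2+/-, which leaves an intact GATA2 allele, and the anti-GATA2 antibody cannot tell its protein from HA-GATA2 or HA-T354M. The empty vector has no HA tag and shows the background of the anti-HA antibody. All cells were sorted for GFP after infection and grew with 50 ng/ml SCF, the KIT ligand, with 3 U/ml erythropoietin, doxycycline and dexamethasone. Whether the GATA2-low cells are 1 clone is not given in the sources used here. Peak lists hold no expression, so neither the cell type nor the amount of GATA2 or KIT could be checked. The labels name no separate cultures, so p-values measure only the spread between libraries, which may be technical.

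Libraries differed in the number of peaks and in depth. The lists held 2789 to 6326 peaks in HA-T354M, 7085 to 12208 in HA-GATA2, 1839 to 3667 in GATA2-low empty-vector and 6577 to 9154 in wild-type empty-vector cells with anti-GATA2. With anti-HA they held 432 to 750 peaks in HA-T354M, 1925 to 6089 in HA-GATA2 and 1 to 13 in empty-vector cells. The lists give no read totals, so the lowest background recovered from each list stands for depth. It averaged 0.479 fragments in HA-T354M, 0.431 in HA-GATA2, 0.174 in GATA2-low empty-vector and 0.265 in wild-type empty-vector anti-GATA2 libraries. With anti-HA it averaged 0.374 in HA-T354M and 0.403 in HA-GATA2 libraries. GATA2-low empty-vector anti-GATA2 replicate 1 has a genotype label that goes against its title, which was followed. Each comparison of site numbers that it enters is also given without it.

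The promoter of KIT was free of peaks in all 28 libraries. The nearest sites ended 68873 bp upstream of the gene's start and began 9942 bp downstream of it. The sequence of the promoter is shown because it is the stretch next to the start of KIT that lacked a peak while 7 sites around it had one. It covers chr4:54657707-54657956 on the plus strand, the 250 bases before the start, from RefSeq on GRCh38.p14, with the one match to a GC box in capitals.
KIT promoter: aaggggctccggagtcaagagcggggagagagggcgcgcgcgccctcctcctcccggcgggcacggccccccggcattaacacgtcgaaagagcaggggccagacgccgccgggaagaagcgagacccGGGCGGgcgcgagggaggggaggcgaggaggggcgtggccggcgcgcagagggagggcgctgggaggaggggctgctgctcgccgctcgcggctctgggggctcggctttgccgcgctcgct
Its G and C share was 76.4%, against a median of 58% over 35116 RefSeq promoters, and 91.9% of them had a lower share. On both strands it held 0 matches to the GATA forms AGATAA and TGATAA, which 9.17% and 6.66% of all promoters hold in 250 bases. It also held 0 matches to the E-box CANNTG, found in 61.8% of promoters, and 1 to the GC box GGGCGG, found in 42.6%. No match says only that these letters are not in this stretch.

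Of the 7 sites, 6 lay between genes upstream of KIT and 1 inside the gene. They are numbered here from upstream to downstream. Site 1 covers chr4:54473079-54474002, with its median summit 184.602 kb upstream of the KIT start. Site 2 covers chr4:54542314-54543294, 115.189 kb upstream. Site 3 covers chr4:54547996-54548324, 109.711 kb upstream, and site 4 begins 649 bp further, covering chr4:54548974-54549442, 108.712 kb upstream. Site 5 covers chr4:54571082-54571927, 86.459 kb upstream, and site 6 covers chr4:54588220-54589084, 69.408 kb upstream. Site 7 covers chr4:54667899-54668382, 10.202 kb into KIT; the annotation used here gives no exons. Downstream of site 7, neither the rest of the gene nor the 200 kb beyond it held a summit. The window also holds the long noncoding RNA genes LINC02260, between site 6 and KIT, and LOC105377657 and LINC02358, both downstream of KIT.

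**Figure D1:**
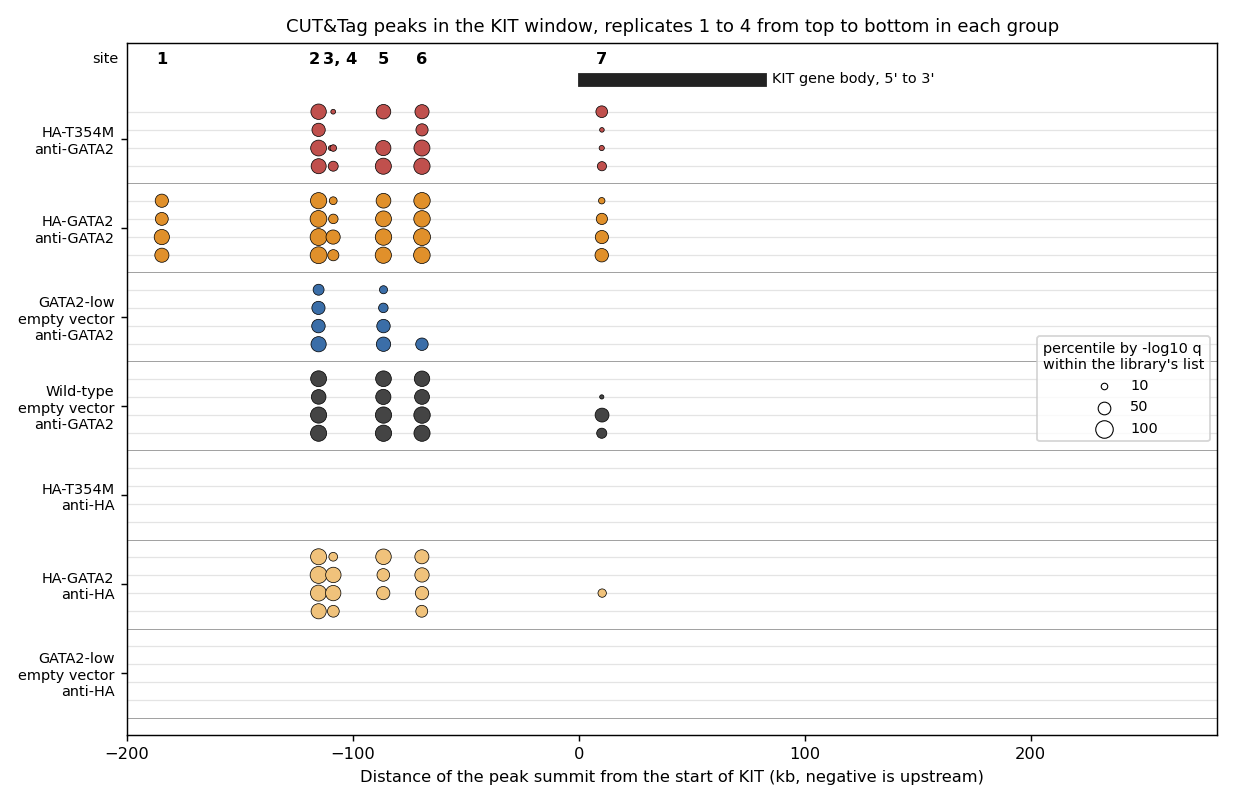
Peaks in the KIT window by library. The x axis is the distance of the summit from the KIT start in kb, rows are the 28 libraries in their 7 groups, and the area of a point grows with the percentile of the peak within its library's list; sites 2, 5 and 6 recur in most anti-GATA2 groups, site 1 in HA-GATA2 anti-GATA2 libraries, and the HA-T354M and empty-vector anti-HA rows are empty.

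KIT had more sites than most genes. Over 19974 protein-coding genes the median number in the body and 200 kb was 4, and 28.7% of genes had 7 or more. Counting sites with a peak in at least 4 libraries, KIT had 6, the median gene had 2, and 14.4% of genes had 6 or more. Its density of 1.45 sites per 100 kb was matched or exceeded by 29.1% of genes.

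The number of KIT sites with a peak per library was 5, 3, 6 and 5 in HA-T354M cells, 6 in each of the 4 libraries of HA-GATA2 cells, 2, 2, 2 and 3 in GATA2-low empty-vector cells and 3, 4, 4 and 4 in wild-type empty-vector cells with anti-GATA2. The HA-GATA2 counts stood above every empty-vector count of either genotype, while the HA-T354M counts overlapped those of all 3 other groups. With anti-HA the numbers were 0 in each HA-T354M library, 4, 4, 6 and 3 in HA-GATA2 libraries and 0 in each empty-vector library.

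**Figure D2:**
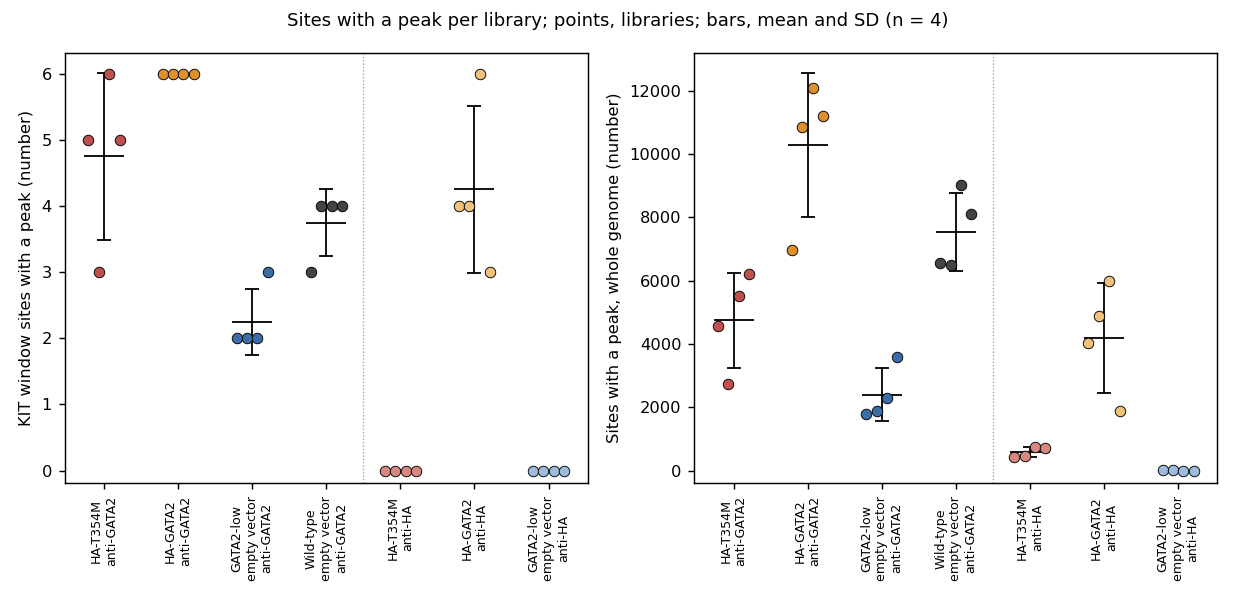
Number of KIT window sites with a peak (left) and of sites in the whole genome with a peak (right) in each library, by group. Points are libraries and bars are the mean and SD (n = 4); on the left all HA-GATA2 anti-GATA2 libraries are at 6 and the GATA2-low empty-vector anti-GATA2 libraries at 2 or 3, and on the right the groups stand in a similar but not identical order.

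Sites 2 and 5 were the lasting ones of the locus. Site 2 had a peak in all 16 anti-GATA2 libraries and in 4 of 4 HA-GATA2 anti-HA libraries. This combination over all groups was shared by 299 of the genome's sites, or 1.73%. Site 5 was occupied in 3 of 4 HA-T354M, 4 of 4 HA-GATA2, 4 of 4 GATA2-low empty-vector and 4 of 4 wild-type empty-vector anti-GATA2 libraries, and in 3 of 4 HA-GATA2 anti-HA libraries. Its one missing anti-GATA2 peak was in HA-T354M replicate 2, which has the shortest HA-T354M anti-GATA2 list.

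Their strength was described within each list. The percentile of a peak is the share of the peaks of its own list with a lower -log10 q, so percentiles of lists of different length do not show a change. At site 2 it was 76.5, 55.9, 81.1 and 72.6 in HA-T354M, 85.3, 90.8, 92.8 and 92.3 in HA-GATA2, 36.4, 54.9, 57.8 and 74.4 in GATA2-low empty-vector and 81.5, 68.4, 84.5 and 84.1 in wild-type empty-vector anti-GATA2 libraries. Site 2 thus stood above the middle of every one of these lists but that of GATA2-low replicate 1. The fragments at the summit were recovered from the deposited values and divided by the library's lowest background, here called the summit ratio. At site 2 the summit ratio was 115, 90.3, 139 and 155 in HA-T354M, 194, 273, 306 and 297 in HA-GATA2, 79.6, 107, 117 and 183 in GATA2-low empty-vector and 159, 133, 216 and 234 in wild-type empty-vector libraries. HA-GATA2 did not overlap HA-T354M or GATA2-low empty-vector libraries in this ratio, and it overlapped the wild-type ones. The share of all sites of the genome without such an overlap is not given here, so this is no result about site 2. The ratio was set up after the peaks had been seen and is given without a test.

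Site 5 gave summit ratios of 155, 185 and 245 in the 3 HA-T354M libraries with a peak, 201, 287, 348 and 323 in HA-GATA2, 108, 149, 197 and 229 in GATA2-low empty-vector and 225, 189, 330 and 360 in wild-type empty-vector libraries. Here HA-GATA2 and wild-type libraries covered nearly the same range. The local background under site 5 was the highest of the 6 sites described singly, 1.77 to 2.57 fragments in GATA2-low empty-vector libraries and 2.73 to 3.59 in wild-type ones.

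Summits fell on the same bases in different cells. At site 5 the summit lay 86459 bp upstream of the KIT start in 6 libraries from 4 groups, and 86539 bp upstream in 4 libraries from 4 groups. At site 2 it lay 115188 bp upstream in 5 libraries from 3 groups, and all 20 summits fell within 98 bp.

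The first comparison asked which KIT sites keep a GATA2 peak when GATA2 is low. GATA2-low empty-vector libraries held 2.25 ± 0.5 KIT sites and wild-type empty-vector libraries 3.75 ± 0.5 (SD, n = 4 each), a difference of -1.5 (exact two-sided permutation test, p = 0.0571, adjusted p = 0.0857 over the 6 anti-GATA2 comparisons). The groups met at 3 sites and the test was not passed. The difference ranged from -1.75 to -1.42 when single libraries were left out, and was -1.42 without GATA2-low replicate 1. In lists reduced to their 1823 best peaks it was -0.5, with 2 KIT sites in each GATA2-low and 3, 1, 3 and 3 in the wild-type libraries.

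The sites behind this difference were the one nearest KIT on the upstream side and the one inside the gene. Site 6 was occupied in 1 of 4 GATA2-low against 4 of 4 wild-type empty-vector libraries, and site 7 in 0 of 4 against 3 of 4. Sites 2 and 5 were occupied in 4 of 4 in both. At site 6 the single GATA2-low peak had 14 fragments at its summit, while the wild-type peaks had 34, 29, 52 and 45. At site 7 the wild-type peaks of replicates 2, 3 and 4 had 11, 21 and 17 fragments and stood at percentiles 1.64, 61.5 and 30.6, so one of them was close to the limit of its list.

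Fisher's exact test compared the number of occupied libraries at each of the 11156 sites occupied in these groups, and after adjustment over all of them 0 sites of the genome passed (0%), at KIT or elsewhere, and 1526 had an unadjusted p below 0.05. In the comparisons that follow 0 sites passed either. With 4 libraries a group, only 4 of 4 against 0 of 4 reaches an unadjusted p of 0.0286. Of the sites tested 13.7% were occupied in 0 of 4 GATA2-low against 4 of 4 wild-type libraries, and of the 4 KIT sites tested 0 had this split. Of the 4806 sites of the genome with a peak in all 4 wild-type libraries, 27% kept one in all 4 GATA2-low libraries, as sites 2 and 5 did, 19% kept it in 1, as site 6 did, and 31.7% in 0.

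Depth moved with this comparison. The lowest background was 0.153 to 0.213 fragments in GATA2-low libraries and 0.222 to 0.302 in wild-type ones. When the fragments of each KIT peak were thinned to one common background, the expected number of sites was 2.2 ± 0.544 in GATA2-low and 3.49 ± 0.553 in wild-type libraries (SD, n = 4 each). Site 6 was then expected in 1 GATA2-low library, as found, and in 4.00 of 4 wild-type libraries. Site 7 was expected in 1.98 of the 4 wild-type libraries. So the difference at site 6 was as large after thinning and that at site 7 was smaller. As a share of all sites of its library, KIT went the other way, 0.0967% of the sites in GATA2-low and 0.0503% in wild-type libraries. This difference of 0.0465 percentage points had p = 0.0286 in the exact two-sided permutation test (adjusted p = 0.0857). The lists as a whole held 1801 to 3597 sites in GATA2-low and 6487 to 9029 in wild-type libraries.

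The next comparison asked what expression of HA-GATA2 adds to GATA2-low cells. HA-GATA2 libraries held 6 ± 0 KIT sites by anti-GATA2 and GATA2-low empty-vector libraries 2.25 ± 0.5 (SD, n = 4 each). The difference was 3.75, without overlap (exact two-sided permutation test, p = 0.0286, the smallest p of 70 splits, adjusted p = 0.0857). It was 3.67 to 4 when single libraries were left out and 3.67 without GATA2-low replicate 1. In this test 4 of 4 HA-GATA2 libraries were above every empty-vector one. As a percent of all sites of its library the direction turned, with KIT at 0.0611% in HA-GATA2 and 0.0967% in GATA2-low empty-vector libraries, a difference of -0.0356 percentage points (exact two-sided permutation test, p = 0.0571). In the gene and 10 kb alone, where only site 7 lies, the difference in sites was 1.

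Sites 1, 4 and 7 were occupied in 4 of 4 HA-GATA2 against 0 of 4 GATA2-low empty-vector libraries, and site 6 in 4 of 4 against 1 of 4. That is 3 of the 6 KIT sites tested with the complete split, where 23.8% of the 14107 sites tested in the genome had it. Each of the 3 had an unadjusted p of 0.0286 and an adjusted p of 0.12 in Fisher's exact test over all sites, where 0 sites passed and 3353 had an unadjusted p below 0.05. After thinning to a common background, site 1 was still expected in 3.98, site 4 in 3.26, site 6 in 4.00 and site 7 in 3.08 of the 4 HA-GATA2 libraries. When every list was reduced to its 1823 best peaks, HA-GATA2 libraries held 2, 2, 3 and 3 KIT sites and empty-vector libraries 2 each, and the difference was 0.5.

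HA-GATA2 cells also had KIT peaks that wild-type cells lacked. The HA-GATA2 count of 6 ± 0 exceeded that of the wild-type empty vector, 3.75 ± 0.5 (SD, n = 4 each), by 2.25 without overlap (exact two-sided permutation test, p = 0.0286, adjusted p = 0.0857). Sites 1 and 4 were occupied in 4 of 4 HA-GATA2 against 0 of 4 wild-type libraries, 2 of the 6 KIT sites tested, against 7.94% of the 16782 sites of the genome. The adjusted p of each was 0.312 in Fisher's exact test. Thinned to a common background, site 1 was expected in 4.00 and site 4 in 3.88 of the 4 HA-GATA2 libraries. HA-GATA2 libraries were deeper, with a lowest background of 0.427 to 0.434 fragments, against 0.222 to 0.302 in wild-type libraries. In lists of the 6555 best peaks the counts overlapped. They were 6, 4, 6 and 5 in HA-GATA2 and 3, 4, 4 and 4 in wild-type libraries. The mean difference was then 1.5 (exact two-sided permutation test, p = 0.114, adjusted p = 0.429). As a percent of all sites of its library the difference was 0.0109 percentage points (exact two-sided permutation test, p = 0.314).

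Site 1 was the one KIT site seen in HA-GATA2 anti-GATA2 libraries alone. It stood at percentiles 55.1, 52.3, 74.4 and 63.7 of those lists with 39, 40, 63 and 50 fragments at the summit. Its peaks were thus above the middle of each list, though only slightly in replicates 1 and 2. The anti-HA antibody gave 0 peaks of 4 there in the same kind of cells, at a lowest background of 0.375 to 0.438 fragments. Site 4 ran the other way, with lower percentiles of 16.4, 26.5, 64.2 and 37.8 by anti-GATA2 and a peak in 4 of 4 HA-GATA2 libraries by anti-HA as well. Over the genome, 1312 sites were occupied in 4 of 4 HA-GATA2 anti-GATA2 libraries and in none of the empty-vector anti-GATA2 libraries of either genotype. Of these, 41.1% were bare by anti-HA in 4 of 4 HA-GATA2 libraries, as site 1 was, and 6.1% were occupied in 4 of 4, as site 4 was. The 2 antibodies were not tested against each other.

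With anti-HA, HA-GATA2 libraries held 4.25 ± 1.26 KIT sites and empty-vector libraries 0 ± 0 (SD, n = 4 each), a difference of 4.25 without overlap (exact two-sided permutation test, p = 0.0286, adjusted p = 0.0429 over the 3 anti-HA comparisons). Leaving out single libraries gave 3.67 to 4.67. The empty vector carries no HA tag and its lists held 1 to 13 peaks in the whole genome, so a KIT peak in each HA-GATA2 library is enough for this p, and the test shows nothing particular to KIT. In the gene and 10 kb alone the difference was 0.25 (exact two-sided permutation test, p = 1). Sites 2, 4 and 6 were occupied in 4 of 4 HA-GATA2 libraries, site 5 in 3, and sites 3 and 7 in 1 each. The complete split of 4 of 4 against 0 of 4 was thus found at 3 of 6 KIT sites, beside 25.3% of the 6916 sites of the genome, and the adjusted p of each was 0.113 in Fisher's exact test.

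Among the anti-HA peaks site 2 ranked highest of the KIT sites by -log10 q. Its percentiles were 82.9, 93, 83 and 73.8, against 63, 65.5, 56 and 43.7 at site 6 and 21.6, 76.5, 75.6 and 42.9 at site 4 of the same lists. Site 5 stood at 77.9, 49.9 and 55.4 in replicates 1 to 3 and had no peak in replicate 4. Site 2 stood above sites 4 and 6 in 4 of 4 lists and above site 5 in the 3 lists that held both. The order by fragments at the summit was another, with 36, 56, 40 and 29 at site 2, 24, 33, 28 and 16 at site 6, and 38, 31 and 41 at site 5 in replicates 1 to 3. Site 5 thus had more fragments than site 2 in replicates 1 and 3.

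**Figure D3:**
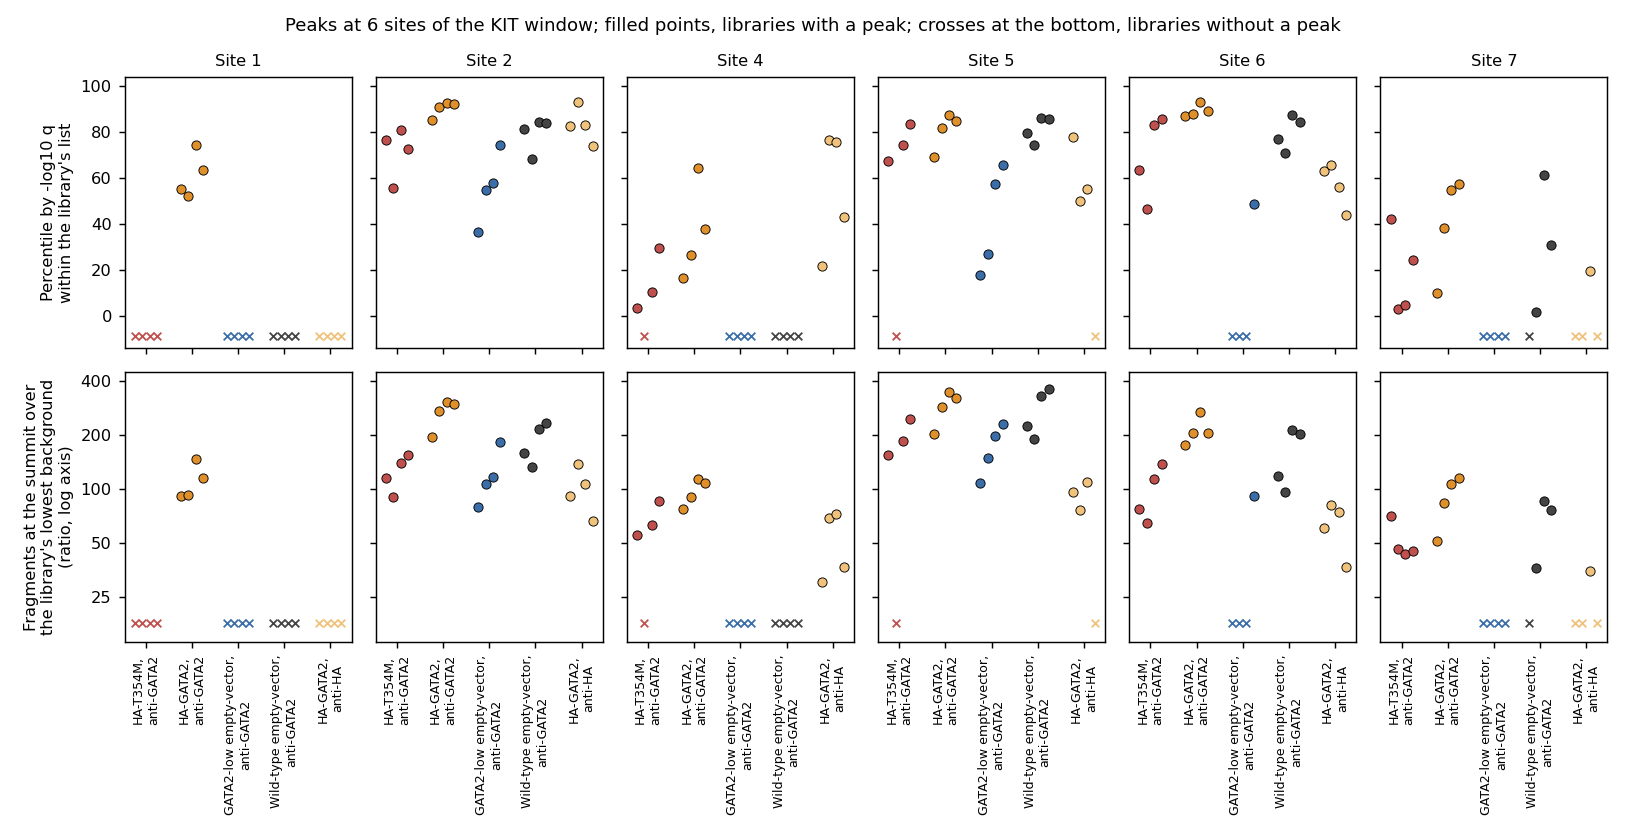
Strength of the peaks at 6 sites of the KIT window. The upper row gives the percentile by -log10 q within the library's own list and the lower row the fragments at the summit over the library's lowest background on a log axis; filled points are libraries with a peak and crosses at the bottom are libraries without one, in 5 of the 7 groups, because the other 2 had no KIT peak. In HA-GATA2 and wild-type anti-GATA2 libraries sites 2, 5 and 6 stand above the other sites, while by anti-HA site 4 stands above sites 5 and 6 by percentile in replicates 2 and 3; site 7 is missing in all GATA2-low empty-vector libraries.

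HA-T354M was then set against the empty vector, against HA-GATA2 and against wild-type cells; the control libraries are those of the comparisons above. With anti-GATA2, HA-T354M libraries held 4.75 ± 1.26 KIT sites and GATA2-low empty-vector libraries 2.25 ± 0.5 (SD, n = 4 each), a difference of 2.5 with an overlap at 3 (exact two-sided permutation test, p = 0.0571, adjusted p = 0.0857). Without HA-T354M replicate 2 the difference was 3.08 and passed the exact permutation test (p = 0.0286, adjusted p = 0.0429), and without GATA2-low replicate 1 it was 2.42. HA-GATA2 against the empty vector had the same unadjusted p of 0.0286 over all libraries but an adjusted p of 0.0857. The adjusted p thus also depends on the other comparisons. Over all libraries left out in turn it was 2.08 to 3.08, with adjusted exact permutation p of 0.0429 to 0.129. HA-T354M replicate 2 had the shortest HA-T354M anti-GATA2 list, and the caller had scaled its fragments by 0.5, the lowest factor of all.

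Site 7, inside KIT, was occupied in 4 of 4 HA-T354M against 0 of 4 GATA2-low empty-vector libraries. It was the 1 KIT site of 6 with the complete split, beside 5.87% of the 7613 sites of the genome, and its adjusted p was 0.483 in Fisher's exact test. Its percentiles in HA-T354M libraries were 42.2, 2.76, 4.79 and 24.2, so those of replicates 2 and 3 lay at the bottom of their lists. Thinned to the common background, which the shallower empty-vector libraries set, site 7 was expected in 1.71 of 4 HA-T354M libraries. Site 6 was occupied in 4 of 4 HA-T354M against 1 of 4 empty-vector libraries and was expected in 3.75 of 4 after thinning, and site 4 was occupied in 3 of 4 against 0 of 4. The mean difference in sites was 1.19 after thinning and 0.75 in lists of equal length.

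HA-T354M libraries held 4.75 ± 1.26 KIT sites by anti-GATA2 and HA-GATA2 libraries 6 ± 0 (SD, n = 4 each), a difference of -1.25 that did not pass (exact two-sided permutation test, p = 0.143, adjusted p = 0.171). Single libraries left out gave -1.67 to -0.667, the first of these without HA-T354M replicate 3 and the other without HA-T354M replicate 2. As a percent of all sites of its library the direction turned, with KIT at 0.102% in HA-T354M and 0.0611% in HA-GATA2 libraries, a difference of 0.041 percentage points (exact two-sided permutation test, p = 0.0571). In the gene and 10 kb alone the difference was 0. Site 1 separated the groups completely, occupied in 0 of 4 HA-T354M against 4 of 4 HA-GATA2 libraries, 1 of the 7 KIT sites tested. In the genome 10.2% of 14531 sites had this split. The other named sites had a peak in 3 or 4 HA-T354M libraries. At site 6 the summit ratios were 77.5, 64.8, 113 and 138 in HA-T354M and 176, 206, 269 and 205 in HA-GATA2 libraries. Where peaks were present, the ratios of these groups did not overlap at sites 2 and 6 and overlapped at sites 4, 5 and 7. The share of all sites of the genome without overlap is not given here, so this is no result about KIT. In lists of the 2779 best peaks the counts were 4, 3, 3 and 3 in HA-T354M and 3 in each HA-GATA2 library, a difference of 0.25. These libraries were of similar depth, with a lowest background of 0.42 to 0.587 fragments in HA-T354M and 0.427 to 0.434 in HA-GATA2 libraries.

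Against the wild-type empty vector, HA-T354M had 1 KIT site more on average (exact two-sided permutation test, p = 0.314, adjusted p = 0.314), with counts of 5, 3, 6 and 5 against 3, 4, 4 and 4. In the exact permutation test the difference was 1.58 without HA-T354M replicate 2 (adjusted p = 0.0429) and 0.583 without HA-T354M replicate 3 (adjusted p = 0.629). None of the 6 KIT sites tested had a complete split in either direction, where 0.446% of the genome's sites had a peak in all HA-T354M and no wild-type library and 4.03% the reverse. Site 4 was occupied in 3 of 4 HA-T354M against 0 of 4 wild-type libraries. With peaks of -log10 q of at least 15 the mean difference in KIT sites was -0.25. As a percent of all sites of its library, KIT stood at 0.102% in HA-T354M and 0.0503% in wild-type libraries. This difference of 0.0519 percentage points had p = 0.0286 in the exact two-sided permutation test (adjusted p = 0.0857).

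The HA tag gave another picture of the mutant. The HA-T354M anti-HA libraries had 0 peaks in the KIT window, as did the empty-vector ones, so no KIT site could be tested between them, while 22.3% of the 1079 sites of the genome that could be tested were occupied in 4 of 4 HA-T354M against 0 of 4 empty-vector libraries. Against HA-GATA2, HA-T354M held 0 ± 0 against 4.25 ± 1.26 KIT sites (SD, n = 4 each), a difference of -4.25 without overlap (exact two-sided permutation test, p = 0.0286, adjusted p = 0.0429), and -4.67 to -3.67 when single libraries were left out. The number of KIT sites was therefore lower in HA-T354M in 4 of 4 libraries, and the difference passed the test. In the gene and 10 kb alone it was -0.25 and did not pass (exact two-sided permutation test, p = 1).

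By anti-HA, sites 2, 4 and 6 were occupied in 0 of 4 HA-T354M against 4 of 4 HA-GATA2 libraries, 3 of the 6 KIT sites tested, beside 13.6% of the 6944 sites of the genome. Each had an adjusted p of 0.211 in Fisher's exact test. The split was common among sites occupied by HA-GATA2. By this antibody 1755 sites were occupied in 4 of 4 HA-GATA2 libraries, and 53.7% of them in 0 of 4 of HA-T354M. Of the 1200 sites with a peak in all 16 anti-GATA2 libraries, as at site 2, 51.7% were occupied by anti-HA in 0 of 4 and 17% in 4 of 4 libraries of HA-T354M cells, and 70.2% in 4 of 4 of HA-GATA2 cells.

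The depth of these anti-HA groups overlapped, at 0.356 to 0.411 fragments of lowest background in HA-T354M and 0.375 to 0.438 in HA-GATA2 libraries, and thinning left an expected 0 ± 0 and 4.22 ± 1.22 KIT sites. List length did not overlap. The best anti-HA rank of a KIT peak in HA-GATA2 libraries was 346, counted from the strongest peak, at site 2 in replicate 2. With each list reduced to its 426 best peaks, HA-T354M libraries held 0 KIT sites each and HA-GATA2 libraries 0, 1, 0 and 0. Within the part of the lists that both kinds of cells share, the loss of KIT peaks in HA-T354M was therefore not detectable, and it cannot be told apart from the lower number of anti-HA peaks in general.

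The window of the gene and 10 kb holds site 7 alone, and by the presence of a peak there KIT was most like ASTL, a metalloprotease gene, and DUSP2, a phosphatase gene that acts on MAP kinases. Both matched KIT in 28 of 28 libraries. They lie next to each other on chromosome 2 and share the peak. RND2, MFSD11 and SRSF2 followed with 27 of 28, and MFSD11 and SRSF2 also lie side by side. In all, 19 genes matched in at least 27 libraries, and the anti-HA libraries of HA-T354M and empty-vector cells, where KIT had no peak, count among the matches.

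In the gene and 10 kb, FLT3, a related receptor kinase of blood progenitors, had the same counts as KIT by anti-GATA2. It had a peak in 4 of 4 HA-T354M, 4 of 4 HA-GATA2, 0 of 4 GATA2-low empty-vector and 3 of 4 wild-type empty-vector libraries. By anti-HA it was occupied in 1 of 4 HA-T354M against 3 of 4 HA-GATA2 libraries. KIT had 0 and 1 at site 7, its only site in this narrower window. CSF1R, the receptor of macrophage colony-stimulating factor, had a peak in 1, 4, 1 and 4 of 4 anti-GATA2 libraries in the same order of groups, and FLT1 in all 16. PDGFRB, PDGFRA and KDR encode receptor kinases of the same or a related family, and PDGFRA and KDR are neighbours of KIT. None of them had a peak in the body or within 10 kb in any library, and their 200 kb windows are not given here. PDGFRA ends at chr4:54298245, so site 1 lies between PDGFRA and KIT. Which gene a site acts on was not tested. Of 9 neighbouring genes on chromosome 4, 5 had a peak in the body or within 10 kb. In the same order of groups, the anti-GATA2 libraries with a peak were 1, 4, 0 and 0 of 4 at FIP1L1, 0, 3, 0 and 2 at CHIC2, 2, 4, 1 and 3 at CLOCK, 0, 0, 0 and 4 at SRD5A3 and 4 in each group at TMEM165. In HA-GATA2 against GATA2-low empty-vector cells 3 of the 4 neighbours tested had a peak in more HA-GATA2 libraries and 0 in fewer, and in GATA2-low against wild-type empty-vector cells 3 of 4 had one in fewer GATA2-low libraries and 0 in more. The median differences of the neighbours were 3 and -2 libraries in these comparisons, and those of all genes 2 and -2.

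Of 56 genes of KIT signalling, 37 had a peak in the body or within 10 kb in any library, 66.1%, against 42.1% of all 19974 protein-coding genes. KITLG, which encodes the ligand, had none. In all 9 comparisons 0 genes of this list and 0 of all genes (0%) passed Fisher's exact test after adjustment over all genes with a peak, while 196 to 1552 of all genes a comparison had an unadjusted p below 0.05, so what follows are counts.

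In GATA2-low against wild-type empty-vector cells, 25 of the 34 list genes tested had a peak in fewer GATA2-low libraries and 0 in more. The median difference was -2 libraries for the list and -2 for all genes. The complete split was seen for 3 of 34, beside 15.8% of all genes, among them the adaptor genes SHC1 and GAB2. Each was occupied in 0 of 4 GATA2-low against 4 of 4 wild-type libraries. CBLB, a ubiquitin ligase gene, and JAK2, a kinase gene, had 0 of 4 against 3 of 4, and FYN, a SRC-family kinase gene, had 1 of 4 against 4 of 4.

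Peaks in all 4 libraries of all 4 anti-GATA2 groups were found at GRB2, an adaptor of the receptor, TEC, a kinase gene, SOCS6, DOK2 and INPP5D, which encode dampeners of receptor signalling, and STAT3, STAT5A and FOXO3, which encode transcription factors of these pathways. The share of all genes with such peaks is not given here, so their number is no result about the list. In HA-GATA2 against GATA2-low empty-vector cells, 6 of 34 genes had the complete split, beside 23.4% of all genes, among them BTK, GAB2, PIK3R1, SPRED1 and SPRED2, and the median difference was 2 libraries for the list and 2 for all genes. PIK3R1 encodes the regulatory subunit of PI3-kinase, and SPRED1 and SPRED2 encode inhibitors of the RAS pathway.

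In HA-T354M against empty-vector cells 0 of 27 list genes had the complete split by anti-GATA2, beside 4.29% of all genes. PTPN11, which encodes a phosphatase that relays receptor signals, and SH2B3, an adaptor gene, were each occupied in 4 of 4 HA-T354M against 2 of 4 empty-vector libraries. Set against HA-GATA2, 2 of 34 genes were occupied in 0 of 4 HA-T354M against 4 of 4 HA-GATA2 libraries, beside 8.3% of all genes, SPRED1 among them. MAP2K1, which encodes a MAP kinase kinase, had 0 of 4 against 3 of 4, and PIK3R1 had 1 of 4 against 4 of 4.

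With anti-HA, 9 of 31 list genes were occupied in 4 of 4 HA-GATA2 against 0 of 4 empty-vector libraries, beside 28.7% of all genes, among them DOK2, FOXO3, INPP5D, LYN, PIK3R1 and SOCS6. Of the list 6 of 31 were occupied in 0 of 4 HA-T354M against 4 of 4 HA-GATA2 libraries, beside 14% of all genes, namely DOK2, INPP5D, LYN, PIK3R1, STAT3 and STAT5A. FOXO3 stood apart from these by its counts, 3 of 4 HA-T354M against 4 of 4 HA-GATA2 libraries. Over the 6 comparisons counted here the share of the list with a complete split was 0% to 29%, and that of all genes 4.29% to 28.7%, so these counts are no result about the list.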

How the data were processed

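CUT&Tag peak lists of 28 libraries of HUDEP-2 cells, 7 groups of 4, were used; 8 IgG libraries were not analysed here. Per the submitters' processing notes, reads were handled with MACS2 2.2.7.1, Bowtie2 2.2.5, cutadapt 3.3 and deepTools 3.5.3 on hg38, at settings not stated there. Each library has its own deposited list of 10 columns. The fold enrichment deposited for a peak is the linear ratio of scaled fragments at its summit to scaled local background. The same constant was added to both before division. The p-value and q-value of a peak were deposited as -log10 values, with no -log10 q below 6.00. These peak values are the authors' and were used to describe or rank peaks within a list and to recover fragments.

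Of the 120964 peaks, 455 lay outside chromosomes 1 to 22 and X and were left out. Peaks overlapping by at least 1 bp were merged into sites, and a library has a site if a peak of it overlaps. Because MACS2 tests whole fragment numbers by a Poisson law, the fragments and the background of a peak follow from its deposited fold with its -log10 p. In each library 99% to 100% of peaks gave such a pair within 0.03%. HA-T354M and HA-GATA2 anti-GATA2 libraries had been scaled by 0.5 to 0.706, and values are printed at full depth. Thinning gives, by binomial expectation, the peaks left at the lowest background of a comparison. Counts of fragments carry counting error only.

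Groups and replicate numbers came from titles. KIT sites per library were compared by exact two-sided permutation (70 splits, smallest p 0.0286), adjusted by Benjamini-Hochberg over the 6 anti-GATA2 or 3 anti-HA comparisons. Sites and genes were tested by Fisher's exact test, adjusted over all with a peak in any of the 8 libraries. Sites with a peak in at least 4 of the 28 libraries were described singly, as were up to 6 pathway genes per comparison with the largest difference in libraries (ties by symbol) and 5 genes most like KIT; other genes were named after their values were seen. Some genes that this rule covers are not reported here. Same-numbered libraries did not deviate together in every pair of any comparison. No pairing by number was thus detected, and the main tests treat libraries as unpaired. The members, gene lists and tests were chosen with earlier results of these data known. Gene positions and the promoter came from RefSeq (GRCh38.p14). Python 3.11.15, scipy 1.17.1 and pandas 2.3.3 were used, and the scripts were tested on simulated data. Alternatives were the peak threshold, list length, depth, window, site definition, adjustment, replicate block and leaving out single libraries.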

Additional observations from a re-analysis of the deposited data

Results flagged for a closer look

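In the GATA2-low empty-vector anti-GATA2 group, replicate 4 had 3 KIT sites and the other 3 libraries had 2 each. The additional site was site 6, and this library also had the longest list of its group, 3667 peaks.

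In the wild-type empty-vector anti-GATA2 group, replicate 1 had 3 KIT sites and the other 3 libraries had 4 each. The site it lacked was site 7. Both libraries were noted because the gap to the nearest other library filled the whole range of the group. In all, 41 groups of values were examined in this way. For continuous values chance alone picks about 1 in 20. Among counts of sites, 3 equal values and 1 different one always fill the range, so that rate does not apply to these groups.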

How the results depend on the processing

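As a percent of each library's sites, the difference in KIT sites turned to 0.0465 percentage points for GATA2-low against wild-type empty vector, -0.0356 for HA-GATA2 against empty vector and 0.041 for HA-T354M against HA-GATA2, all by anti-GATA2; the cause was not tested. With peaks of -log10 q of at least 15 HA-T354M minus wild type was -0.25. In lists of equal length HA-T354M minus HA-GATA2 was 0.25 by anti-GATA2 and -0.25 by anti-HA, which no longer passed. With 10 kb in place of 200 kb, which leaves site 7 alone, the anti-HA differences were 0.25 for HA-GATA2 against empty vector and -0.25 for HA-T354M against HA-GATA2. With the replicate number as a block these were 4.25 and -4.25 with an exact sign-flip p of 0.125, the smallest that 16 sign flips give. Leaving out single libraries gave 2.08 to 3.08 for HA-T354M against empty vector and 0.583 to 1.58 for HA-T354M against wild type by anti-GATA2. Each passed only without HA-T354M replicate 2, at an unadjusted p of 0.0286 (exact two-sided permutation test).

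Adjusting only over sites occupied in 4 of 8 libraries, which alone can pass, most such sites of the genome were called, so a call at KIT shows nothing particular to it. The KIT sites called were 3 for HA-GATA2 against empty vector, beside 91.8% of all such sites, 1 for HA-T354M against HA-GATA2, beside 73.2%, and 2 for HA-GATA2 against wild type, beside 69.8%, by anti-GATA2. By anti-HA they were 3 for HA-GATA2 against empty vector, beside 99.9%, and 3 for HA-T354M against HA-GATA2, beside 89%. The KIT signalling genes called likewise were 3 of 3 for GATA2-low against wild type, beside 88.5% of all such genes, and 6 of 6, 2 of 2 and 1 of 2 in the same anti-GATA2 order, beside 89.3%, 64.8% and 60.1%. By anti-HA they were 9 of 9 and 6 of 8, beside 99.8% and 82.7%.

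Of the other alternatives of the KIT site number, 43 kept the direction and the call, as did 62 with a library left out. HA-T354M minus HA-GATA2 by anti-GATA2 was 0 with 10 kb. HA-T354M against empty vector by anti-HA was 0 throughout. The peaks of site 3 had a -log10 q of 7.98 and 8.57, near the lowest of the lists, so their absence from other libraries is not shown at this depth. Sites 4 and 7 had peaks down to 6.96 and 6.55 but also up to 41.1 and 33.9.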
